A study of Homo sapiens with 6 samples.

Results

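The genes described here encode the actins, the myosin motors and their light chains, the tropomyosins, and a set of filament partners: alpha-actinins, filamins, calponins, transgelins, caldesmon and vinculin. They were chosen by a rule on gene symbols, with earlier results of these data known, and 75 of the 28265 genes in the count table met the rule. RNA came from Huh7, a long-established line of human liver cancer cells (hepatocellular carcinoma), 48 h after the cells were transduced with lentivirus. Cells in the LHX2 group received a vector that expresses the LIM-homeodomain transcription factor LHX2, and cells in the CTRL group received a control vector. Each group held 3 libraries, made from total RNA with a stranded mRNA kit. Both groups are the same line, grown in the same medium with serum, and both carry a lentiviral vector. Nothing in the labels ties replicates to separate cultures, and the p-values below therefore measure only how these libraries vary, a variation that may be technical. The table's read counts summed to between 30029313 and 39653681 per library, LHX2 itself had 2535, 2427 and 3126 counts in LHX2 replicates 1 to 3, against 1, 2 and 1 in CTRL replicates 1 to 3, and each library differed less from the libraries of its own group than from those of the other.

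Actin assembles into filaments that carry the shape of a cell and the tracks on which myosins pull. Myosin II forms bipolar filaments from heavy chains, essential light chains and regulatory light chains, and contracts actin bundles, whereas unconventional myosins carry membranes or tether them to actin. Tropomyosins lie along the filament and govern which myosins and severing proteins reach it, alpha-actinins and filamins crosslink filaments, and vinculin joins them to adhesion sites. Many of these genes are transcribed by serum response factor (SRF) with its actin-sensing cofactors MRTFA and MRTFB, and SRF binds a DNA element named the CArG box. In the liver, hepatocytes use the non-muscle forms, while the smooth and striated muscle forms belong to vessel wall cells, activated stellate cells and muscle.

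Of the 75 genes, 47 had enough reads to be tested, and 23 of these rose with LHX2, 6 fell and 18 did not pass (edgeR quasi-likelihood test, Benjamini-Hochberg adjusted p under 0.05 over all 14533 genes tested). Across all genes tested, 32.5% were called, 16.6% higher and 15.8% lower, beside 61.7% of the cytoskeletal genes tested, 48.9% higher and 12.8% lower. Sizes were mostly modest: called cytoskeletal genes had a median absolute log2 fold change of 0.35, all called genes one of 0.30, and 27.6% of the called genes moved at least 1.5-fold, beside 20.3% of all called genes. The median log2 fold change of the 47 genes was 0.14, and that of all genes tested was 0.01. Libraries of the 2 groups did not overlap in 33 of the 47 genes, LHX2 higher in 23 and lower in 10, where the groups did not overlap in 44.9% of all genes tested, LHX2 higher in 22.9% and lower in 22.1%. When each library's trend in length and GC content of the transcripts was taken out, 21 were higher and 12 lower, and the share of higher genes among those called was 63.6% in place of 79.3%. The share of higher genes among all called genes also dropped, to 44.7% in place of 51.2%, with 36.0% of the genes in that fit called. The fit with this correction covered 13902 genes in place of 14533, since genes without an annotated transcript length were left out. Of the cytoskeletal genes called with this correction, 27 were also called without it.

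**Figure D1:**
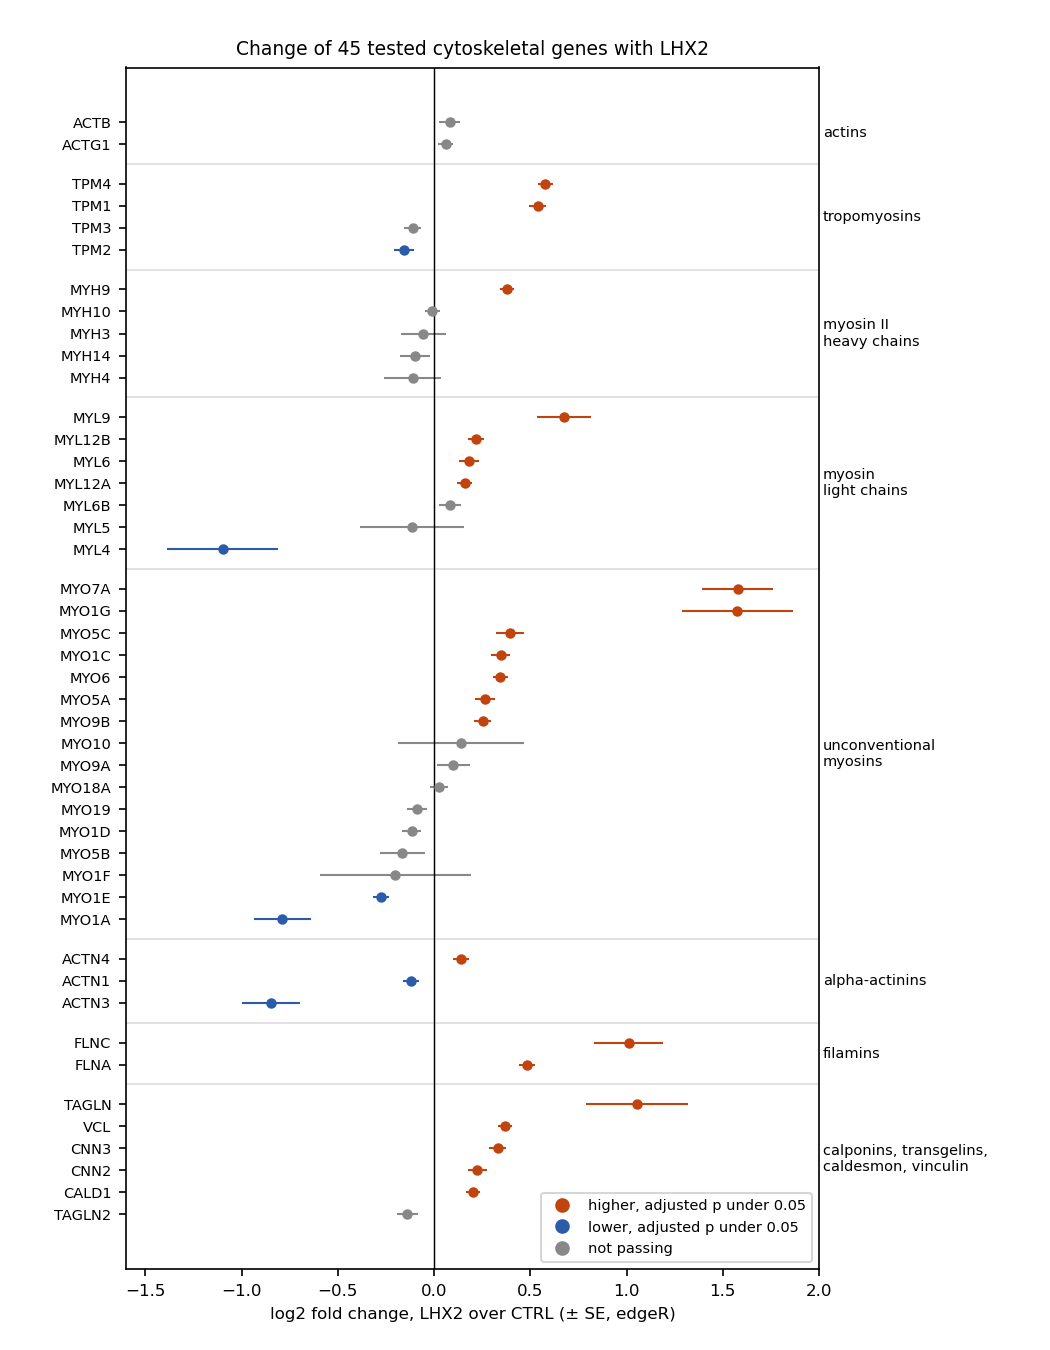
Log2 fold change of LHX2 over CTRL (horizontal axis) for 45 of the 47 tested genes, grouped by family, with bars of 1 standard error; orange points rose, blue points fell and grey points did not pass. FLNA and FLNC lie to the right of 0, tropomyosins and alpha-actinins lie on both sides, and MYO7A and MYO1G lie farthest to the right at 1.58.

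The letters around the transcription start were examined for the CArG box because it is the best-known shared element of these genes. RefSeq promoter windows (GRCh38.p14, 250 bases before to 50 after the RefSeq gene start) were given for 38 of the 47 genes. The genes without a window, among them ACTB, ACTN3, TAGLN, MYH3, MYL4, MYL9 and MYO7A, were not searched. Of the 38 windows, 5 held a CArG box, CC and GG around 6 bases that are each A or T. The same element was in 1.03% of the 11306 windows of tested genes. Of the 5 genes, TPM4, FLNA and CNN2 rose, MYO1E fell and ACTG1 did not pass. Each window is printed 5′ to 3′ on the gene's strand, with the CArG box in capitals, so that the element can be read in its surroundings.
TPM4 (higher), plus strand, chr19:16067288-16067587: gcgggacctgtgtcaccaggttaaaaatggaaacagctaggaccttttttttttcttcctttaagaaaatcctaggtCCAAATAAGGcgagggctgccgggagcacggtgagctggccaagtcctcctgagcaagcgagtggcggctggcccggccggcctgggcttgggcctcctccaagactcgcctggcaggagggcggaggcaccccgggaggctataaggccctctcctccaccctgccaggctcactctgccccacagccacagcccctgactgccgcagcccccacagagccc
FLNA (higher), minus strand, chrX:154374585-154374884: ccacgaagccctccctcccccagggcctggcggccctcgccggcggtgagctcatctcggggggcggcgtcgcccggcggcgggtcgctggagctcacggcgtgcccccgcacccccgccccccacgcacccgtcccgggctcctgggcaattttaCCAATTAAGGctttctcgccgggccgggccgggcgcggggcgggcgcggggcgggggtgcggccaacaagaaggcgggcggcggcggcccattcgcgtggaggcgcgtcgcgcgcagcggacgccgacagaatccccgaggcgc
CNN2 (higher), plus strand, chr19:1026358-1026657: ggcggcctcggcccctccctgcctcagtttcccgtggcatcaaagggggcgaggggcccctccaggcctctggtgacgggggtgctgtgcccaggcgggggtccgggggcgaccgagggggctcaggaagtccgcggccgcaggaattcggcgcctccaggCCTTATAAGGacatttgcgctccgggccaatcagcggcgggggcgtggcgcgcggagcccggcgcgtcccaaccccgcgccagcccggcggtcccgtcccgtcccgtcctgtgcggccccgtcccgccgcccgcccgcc
ACTG1 (not passing), minus strand, chr17:81512750-81513049: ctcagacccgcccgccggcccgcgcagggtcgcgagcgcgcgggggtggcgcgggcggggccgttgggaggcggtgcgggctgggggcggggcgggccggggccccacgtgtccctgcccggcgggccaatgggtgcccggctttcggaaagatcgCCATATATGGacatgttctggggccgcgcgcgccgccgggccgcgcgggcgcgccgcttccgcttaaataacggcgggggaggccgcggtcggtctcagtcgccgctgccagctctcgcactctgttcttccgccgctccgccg
MYO1E (lower), minus strand, chr15:59372822-59373121: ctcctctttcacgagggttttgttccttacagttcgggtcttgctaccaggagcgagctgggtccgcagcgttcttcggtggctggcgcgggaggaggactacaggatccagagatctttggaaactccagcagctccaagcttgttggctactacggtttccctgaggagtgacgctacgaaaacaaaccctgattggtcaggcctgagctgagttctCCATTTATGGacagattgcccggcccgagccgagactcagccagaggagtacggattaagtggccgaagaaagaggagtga
The box began 173 bases before the start in TPM4, 94 before it in FLNA and in ACTG1, 89 before it in CNN2 and 31 before it in MYO1E. A box was thus in windows of genes that rose, fell and did not pass, and a match of letters is not a measurement of SRF binding. The TEAD factor motif CATTCC, searched on both strands, can share end bases with a CArG box, but no window held both. It was in 6 of the 38 windows, against 11.04% of windows of tested genes, belonging to CALD1, VCL, FLNC, MYH9 and MYL12A, which rose, and MYH10, which did not pass. Genes that rose held 19 of the 38 windows, and the split of the motif between them and the others was not tested. The LIM-homeodomain motif TAATTA, also searched on both strands and able to lie inside a CArG box, was in 1 window, that of MYH4, against 2.24% of windows of tested genes.

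The cytoplasmic actins were the most abundant of the actin genes and did not pass. ACTB, which encodes beta-actin (chromosome 7, 5527148 to 5530601 in the RefSeq annotation of GRCh38, as for the positions below), had 1959, 1772 and 1974 CPM in LHX2 replicates 1 to 3, against 1903, 1805 and 1688 CPM in CTRL replicates 1 to 3, where CPM are the field's usual depth-scaled read counts, set against each library's normalised size. ACTG1, the gamma-actin gene, had 1169, 1126 and 1168 CPM in LHX2 libraries, against 1134, 1110 and 1075 CPM in CTRL libraries. The groups overlapped for both genes, and the differences were 0.08 ± 0.05 and 0.06 ± 0.04 on the log2 scale (SE, edgeR adjusted p = 0.27 and 0.26). Of all windows of 50 bases in its longest transcript, 7.01% for ACTB and 3.58% for ACTG1 also occurred in transcripts of other genes (ACTBP2 and ACTG1P20 foremost), so a small part of their reads may be shared. The skeletal (ACTA1), cardiac (ACTC1) and smooth muscle actins (ACTA2 and ACTG2) had at most 4 counts in any library and were not tested.

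Tropomyosin genes moved apart from each other. TPM4, one of the main non-muscle tropomyosin genes (chromosome 19, 16067538 to 16103002), had 503, 476 and 481 CPM in LHX2 libraries, against 323, 334 and 321 CPM in CTRL libraries. Every LHX2 library thus lay above every CTRL library, a 1.49-fold rise (edgeR adjusted p = 3.7e-08). TPM1, whose isoforms serve muscle and non-muscle cells, had 64.9, 61.7 and 62.0 CPM in LHX2 libraries, against 42.5, 43.7 and 43.5 CPM in CTRL libraries, and rose 1.45-fold (edgeR adjusted p = 3.4e-07). TPM2 fell to 132 ± 1.54 CPM in LHX2 libraries, against 146 ± 11.3 CPM in CTRL libraries (SD, n = 3 each), a log2 fold change of -0.16 (edgeR adjusted p = 0.027). Its lowest CTRL value, 133.5 CPM in replicate 3, lay close to the LHX2 values of 132.5, 129.8 and 132.3 CPM, and the call was lost without CTRL replicate 1 (-0.13), CTRL replicate 2 (-0.12) or LHX2 replicate 2 (-0.15) and with library totals alone (-0.13). TPM3, the most abundant in CTRL cells, had 472 ± 27.5 CPM in LHX2 libraries and 509 ± 5.99 CPM in CTRL libraries (SD, n = 3 each) and did not pass (log2 fold change -0.11 ± 0.04, SE, adjusted p = 0.068), although it was called at -0.15 without LHX2 replicate 1. It was also called lower with no filter on low counts, and every LHX2 library lay below every CTRL library. Per kb of the longest annotated transcript TPM4 stood at 157 CPM in LHX2 cells, against 105 CPM in CTRL cells, and TPM3 at 117 CPM in LHX2 cells, against 126 CPM in CTRL cells, so the order of these levels differed between the groups. Of the 50-base windows of the TPM4 transcript 17.2% also occurred in another gene, and exons on the opposite strand overlap 16.1% of the exonic bases of TPM1 through TPM1-AS alone, so parts of both values may include reads of those genes.

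**Figure D2:**
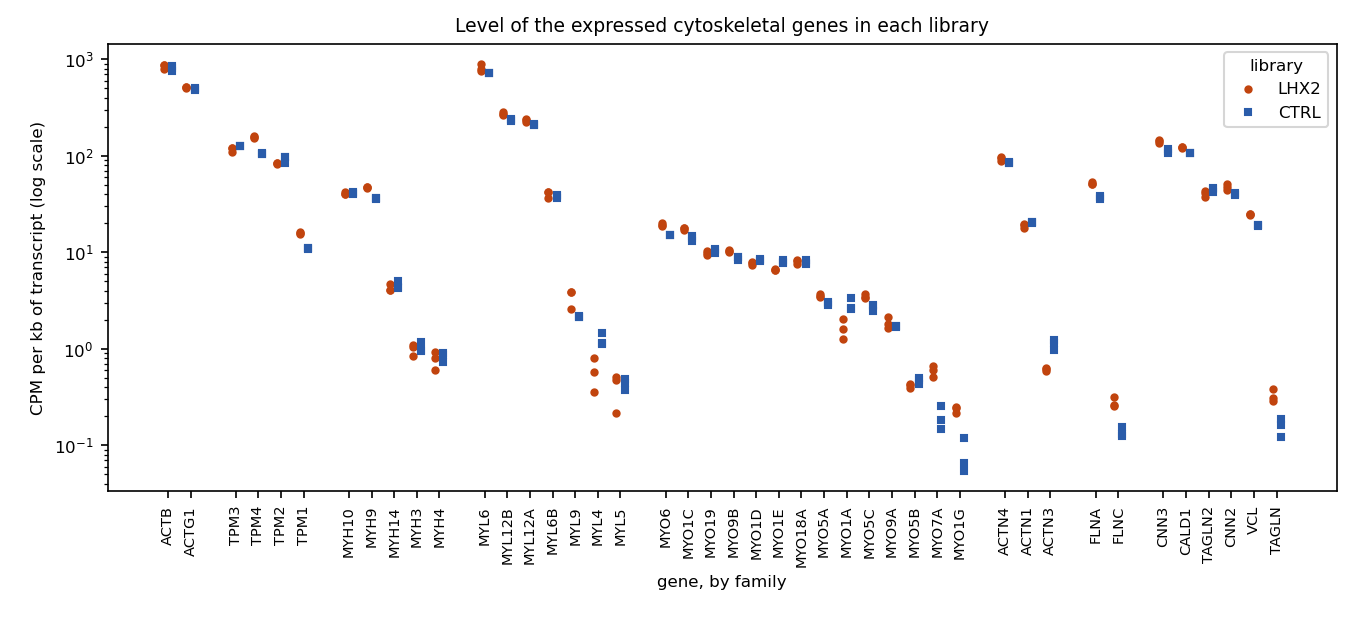
Level in each library as CPM per kb of the longest annotated transcript (vertical axis, log scale) for 43 of the 45 genes that averaged 1 CPM or more in either group, ordered by family and within a family by the CTRL mean; circles are LHX2 libraries and squares CTRL libraries. ACTB and MYL6 stand highest, at 847 and 812 in LHX2 cells, against 801 and 716 in CTRL cells, and the circles of TPM4, TPM1, MYH9 and FLNA stand clear above the squares.

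Of the heavy chains of non-muscle myosin II, MYH9 alone was called. MYH9, the IIA heavy chain (chromosome 22, 36281280 to 36387967), had 357, 360 and 349 CPM in LHX2 libraries, against 272, 274 and 273 CPM in CTRL libraries. The lowest LHX2 library lay far above the highest CTRL library, a 1.30-fold rise (edgeR adjusted p = 1.5e-06). MYH10, the IIB heavy chain, had 311, 330 and 309 CPM in LHX2 libraries, against 308, 326 and 321 CPM in CTRL libraries, with a difference of -0.01 ± 0.04 on the log2 scale (SE, edgeR adjusted p = 0.91). MYH14, the IIC heavy chain, was much less abundant per kb, at 4.27 CPM in LHX2 cells and 4.57 CPM in CTRL cells, and did not pass (-0.10 ± 0.08, SE, adjusted p = 0.37). Per kb MYH9 held 47.02 CPM and MYH10 40.8 CPM in LHX2 cells, against 36.1 and 41.0 CPM in CTRL cells. With the trend in length and GC content removed, MYH9 stood at 0.23, still called, MYH10 at -0.09, not called (adjusted p = 0.0545), and MYH14 was called lower at -0.28. Among heavy chains named for muscle, MYH3, the embryonic form, and MYH4, a fast skeletal form, had 130 to 232 counts in every library and did not pass (log2 fold change -0.05 and -0.11). The other 9 heavy-chain genes, among them the smooth muscle gene MYH11, had at most 5 counts in any library.

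Light chains of non-muscle myosin II rose with MYH9. MYL9, a regulatory light chain abundant in smooth muscle (chromosome 20, 36541519 to 36551447), had 10.9, 10.9 and 7.22 CPM in LHX2 libraries, against 6.12, 5.97 and 6.01 CPM in CTRL libraries. Its groups did not overlap, although LHX2 replicate 3 lay near the CTRL libraries, and the rise was 1.60-fold (edgeR adjusted p = 1.6e-03). MYL12A and MYL12B, the neighbouring genes for the regulatory light chains of most non-muscle cells (chromosome 18), rose 1.12-fold and 1.16-fold (edgeR adjusted p = 7.6e-03 and 6.4e-04). MYL12B had 354, 340 and 329 CPM in LHX2 libraries, against 299, 291 and 289 CPM in CTRL libraries, and MYL12A had 297, 289 and 272 CPM in LHX2 libraries, against 253, 255 and 260 CPM in CTRL libraries. The pair share 6.44% of the 50-base windows of MYL12A, so some reads may not be assignable to either. MYL6, the essential light chain of non-muscle and smooth muscle myosin, had 1382, 1252 and 1174 CPM in LHX2 libraries, against 1118, 1120 and 1122 CPM in CTRL libraries, a log2 fold change of 0.18 (edgeR adjusted p = 0.0145). LHX2 replicate 1 was the highest, and the call was lost without it (0.11), as well as without CTRL replicate 1 (0.18) or CTRL replicate 2 (0.18). MYL6B, a related essential chain, did not pass at 0.08, but was called at 0.15 without LHX2 replicate 3. MYL4, the atrial and embryonic essential chain, was low and fell, with 22, 10 and 19 counts in LHX2 libraries, against 34, 40 and 44 counts in CTRL libraries (2.14-fold lower, edgeR adjusted p = 9.1e-03). MYL5 had 19 to 51 counts per library and did not pass (-0.12). MYL1, MYL2, MYL3 and MYL7, light chains of striated muscle, had 0 counts in all libraries, and MYL10 had at most 7.

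Among unconventional myosins 7 of 17 tested genes rose and 2 fell, beside 16.6% higher and 15.8% lower among all genes tested. The other 8 of the family did not pass. The largest rise was that of MYO7A, a class VII motor of sensory hair bundles and of retinal pigment epithelium (chromosome 11, 77128246 to 77215241), with 113, 136 and 177 counts in LHX2 libraries, against 36, 74 and 44 counts in CTRL libraries. The groups did not overlap, and the rise was 2.99-fold (edgeR adjusted p = 1.3e-05) from a low level of 1.45 ± 0.399 CPM in CTRL cells (SD, n = 3). MYO1G, a class I motor of blood cells, had 41, 43 and 44 counts in LHX2 libraries, against 22, 12 and 12 counts in CTRL libraries, and rose 2.98-fold (edgeR adjusted p = 6.8e-04). CTRL replicate 1 was the highest of its group, and the log2 fold change lay between 1.34 and 1.97 when each library was left out.

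More abundant unconventional myosins rose by smaller steps. MYO6, the motor that walks towards the minus end of actin filaments and serves endocytosis, had 161, 173 and 167 CPM in LHX2 libraries, against 130, 132 and 132 CPM in CTRL libraries (1.27-fold, edgeR adjusted p = 1.0e-05). MYO1C, a membrane tether of vesicle transport, rose 1.27-fold, and the vesicle motors MYO5C and MYO5A rose 1.32-fold and 1.201-fold, without overlap between the groups in any of the 3. MYO5A stood at 0.14 in place of 0.26 on the log2 scale with the trend in length and GC content removed, still called. MYO9B, whose tail holds a GTPase-activating domain, rose 1.19-fold, but did not pass with that trend removed (0.09, adjusted p = 0.0968).

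MYO1A and MYO1E were the unconventional myosins that fell. MYO1A, the brush-border motor of intestinal microvilli, had 4.56, 5.91 and 7.44 CPM in LHX2 libraries, against 9.37, 9.72 and 12.1 CPM in CTRL libraries (1.73-fold lower, edgeR adjusted p = 8.0e-04). The groups stayed apart although each was spread widely. MYO1E, a class I motor of endocytosis, fell to 57.3 ± 0.811 CPM in LHX2 libraries, against 69.4 ± 2.18 CPM in CTRL libraries (SD, n = 3 each; log2 fold change -0.28, edgeR adjusted p = 1.8e-04). MYO1D (-0.12) and MYO5B (-0.16) had every LHX2 library below every CTRL library without passing. MYO19, a motor of mitochondria, stood at -0.09, MYO18A at 0.03, MYO9A at 0.10, and MYO10, the motor of filopodia, at 0.14 with 11 to 19 counts per library. MYO1F had 6 to 16 counts per library and a log2 fold change of -0.20. With the trend in length and GC content removed, MYO1D (-0.17), MYO19 (-0.17) and MYO18A (-0.15) were called lower, and for MYO18A this turned the direction. TIAF1 lies on the same strand within MYO18A and overlaps 9.26% of its exonic bases. The 8 remaining genes of this family had at most 17 counts in any library.

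Alpha-actinins differed in direction, and the changes of the non-muscle pair were small. ACTN4 had 483, 443 and 469 CPM in LHX2 libraries, against 427, 422 and 415 CPM in CTRL libraries, a log2 fold change of 0.14 ± 0.04 (SE, edgeR adjusted p = 0.016). That call was lost with the trend in length and GC content removed (0.05), without LHX2 replicate 1 (0.11), without CTRL replicate 2 (0.14) and without CTRL replicate 3 (0.13), and exons of CAPN12 on the opposite strand overlap 14.2% of its exonic bases. ACTN1, the crosslinker of stress fibres and adhesions, had 88.6, 84.0 and 91.5 CPM in LHX2 libraries, against 95.8, 96.6 and 94.4 CPM in CTRL libraries (-0.12 ± 0.04, SE, edgeR adjusted p = 0.043). Its call sat at the threshold and was lost without any 1 library other than LHX2 replicate 3, with values between -0.13 and -0.09, and also in DESeq2 (-0.12), with no filter on low counts (-0.12) or with scaling by library totals alone (-0.09). ACTN3, the alpha-actinin of fast skeletal fibres, was low, with 55, 60 and 69 counts in LHX2 libraries, against 97, 137 and 124 counts in CTRL libraries, and was 1.80-fold lower (edgeR adjusted p = 5.2e-04). ACTN2, the cardiac form, had at most 2 counts in any library.

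The filamin genes FLNA and FLNC rose. FLNA, the actin crosslinker of most non-muscle cells (chromosome X, 154348531 to 154374634), had 439, 437 and 451 CPM in LHX2 libraries, against 326, 320 and 302 CPM in CTRL libraries. The groups were far apart, a 1.40-fold rise (edgeR adjusted p = 3.6e-07). FLNC, the filamin of striated muscle, was low, with 70, 73 and 104 counts in LHX2 libraries, against 39, 56 and 37 counts in CTRL libraries (2.01-fold higher, edgeR adjusted p = 5.0e-04). With the trend in length and GC content removed, the log2 fold changes were 0.29 for FLNA and 0.80 for FLNC in place of 0.48 and 1.01, both still called.

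Of the calponins, transgelins, caldesmon and vinculin, 5 of 6 tested genes rose, and TAGLN2 did not pass in edgeR. Beside this, 16.6% of all genes tested were higher and 15.8% lower. VCL, vinculin (chromosome 10, 73998116 to 74121363), had 195, 197 and 197 CPM in LHX2 libraries, against 153, 155 and 149 CPM in CTRL libraries, with little spread inside either group (1.29-fold higher, edgeR adjusted p = 2.3e-06). CNN3, acidic calponin, had 310, 295 and 314 CPM in LHX2 libraries, against 253, 245 and 233 CPM in CTRL libraries (1.26-fold higher, edgeR adjusted p = 2.8e-05), and its relative CNN2 rose 1.17-fold. CALD1, caldesmon, an inhibitor of actomyosin, had 527, 528 and 516 CPM in LHX2 libraries, against 452, 455 and 461 CPM in CTRL libraries (1.15-fold higher, edgeR adjusted p = 6.0e-04). TAGLN, the smooth muscle protein SM22, was near the limit of the test, with 38, 29 and 37 counts in LHX2 libraries, against 20, 21 and 13 counts in CTRL libraries (2.07-fold higher, edgeR adjusted p = 6.6e-03), and it was not tested with a filter of 1 CPM in 3 libraries. TAGLN2, the non-muscle relative, had 65.2 ± 4.39 CPM in LHX2 libraries and 71.8 ± 3.89 CPM in CTRL libraries (SD, n = 3 each) and did not pass (-0.14, adjusted p = 0.065), but it was called lower at -0.19 without LHX2 replicate 1, at -0.18 without CTRL replicate 3, at -0.13 with the trend in length and GC content removed and at -0.14 with no filter on low counts. Opposite-strand exons overlap 11.1% of the exonic bases of VCL (AP3M1) and 11.4% of those of TAGLN (PCSK7). CNN1, the smooth muscle calponin, had 12, 2 and 13 counts in LHX2 libraries, against 3, 9 and 6 counts in CTRL libraries, and was not tested.

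**Figure D3:**
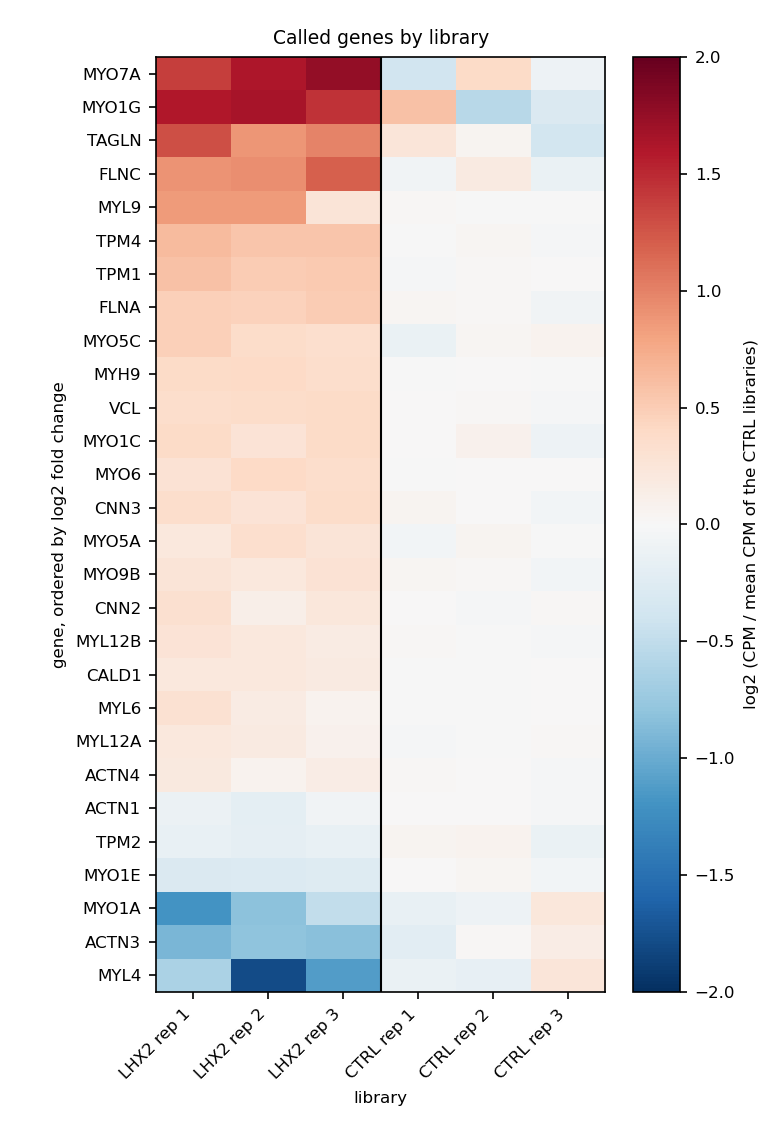
CPM of 28 of the 29 called genes in each library, as log2 of the ratio to the mean of the CTRL libraries (colour, red above and blue below), LHX2 libraries on the left and CTRL libraries on the right, ordered by log2 fold change. The 22 genes shown that rose lie above 0 in every LHX2 library, but some cells are near white, as for MYL6 in LHX2 replicate 3 (0.07). For MYL9 LHX2 replicate 3 is paler than LHX2 replicates 1 and 2, and MYO1G is also red in CTRL replicate 1 (0.59).

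Ratios of related genes within a library were compared next, since they do not depend on how libraries are scaled. For 11 ratios of family members the exact two-sided permutation test over 3 against 3 libraries cannot give a p below 0.10, and 8 of the ratios reached it (adjusted p = 0.138 over the 11 ratios). Ratios of other gene pairs were not computed, so no share over all genes stands beside this count. For single genes the groups did not overlap in 44.9% of all genes tested. Each ratio restates the fold changes of its 2 genes and is not separate evidence. TPM4 over TPM3 was 1.02, 0.987 and 1.09 in LHX2 libraries, against 0.638, 0.661 and 0.621 in CTRL libraries, a ratio 1.61 times as high. TPM1 over TPM3 was 1.57 times as high, while TPM2 over TPM3 overlapped between the groups (p = 0.90, exact). MYH10 over MYH9 was 0.870, 0.918 and 0.887 in LHX2 libraries, against 1.13, 1.19 and 1.18 in CTRL libraries, so that the gene with more reads was MYH9 in every LHX2 library and MYH10 in every CTRL library. ACTN4 over ACTN1 was higher in all LHX2 libraries (5.12 to 5.45, against 4.37 to 4.46 in CTRL libraries), and MYH14 over MYH9 was lower in all of them. MYL9 over MYL12A and TAGLN over TAGLN2 were also higher in every LHX2 library, with log2 differences of 0.50 and 1.22. ACTG1 over ACTB and MYL12A over MYL12B overlapped, with log2 differences of -0.02 and -0.06 (p = 0.60 and 0.20, exact). A trend with length and GC content is not removed by such a ratio: the members of each pair then stood at 0.59 and -0.11 (TPM4, TPM3) and at -0.09 and 0.23 (MYH10, MYH9) on the log2 fold change scale.

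**Figure D4:**
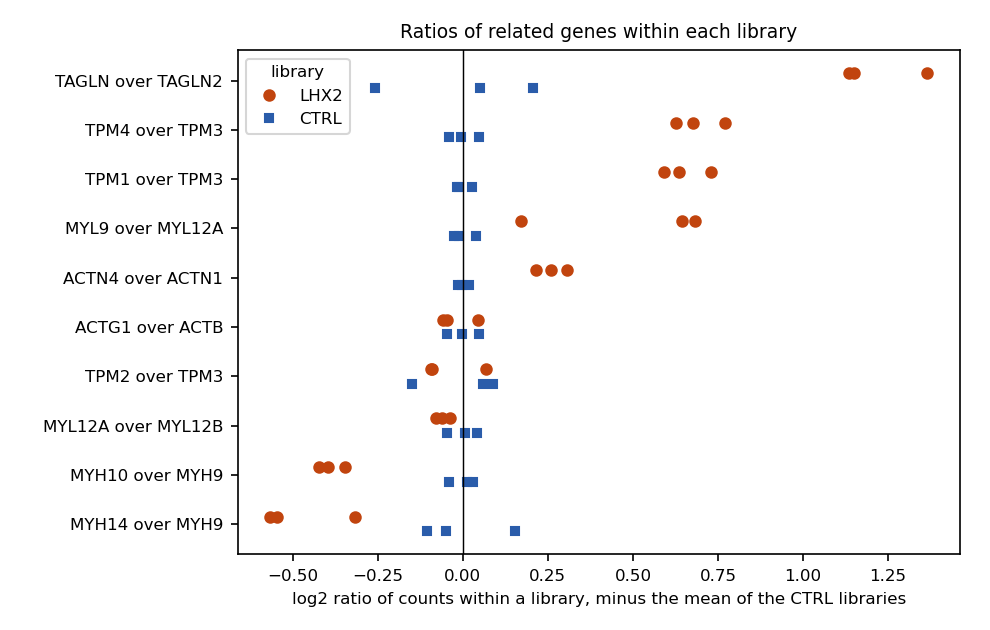
Log2 ratio of the counts of 2 related genes within each library, shown as the difference from the mean of the CTRL libraries (horizontal axis), for 10 of the 11 ratios; circles are LHX2 libraries and squares CTRL libraries. Circles and squares separate in 7 of these and mix for ACTG1 over ACTB, TPM2 over TPM3 and MYL12A over MYL12B.

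Summed over all 75 genes, reads made up 10557, 10100 and 10231 CPM in LHX2 libraries, against 9405, 9305 and 9079 CPM in CTRL libraries, 1.11 times as many. Tropomyosin reads summed to 1153 ± 38.5 CPM in LHX2 libraries and 1025 ± 11.5 CPM in CTRL libraries (SD, n = 3 each), a ratio of 1.12, and actin reads to 3056 ± 137 CPM in LHX2 libraries and 2905 ± 138 CPM in CTRL libraries, a ratio of 1.05. These sums follow the few most abundant members. In RNA from a whole culture, a change in some cells cannot be told apart from a smaller change in all cells.

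The line was checked against cell type markers. The 8 hepatocellular markers, led by AFP, were all present and summed to 44665 to 49012 CPM in LHX2 libraries, against 47918 to 49276 CPM in CTRL libraries. Most of that sum was AFP and ALB, and within the list HNF4A, SERPINA1 and TTR fell (log2 fold change -0.26, -0.30 and -0.17) while TF rose (0.22). Of 8 smooth muscle markers 7 were under 1 CPM, with LMOD1, DES and MYOCD at 0 counts in all libraries, and their sum of 28.1 to 30.03 CPM in LHX2 libraries, against 21.2 to 24.9 CPM in CTRL libraries, was nearly all SMTN. Cardiac and skeletal muscle markers, 8 each, summed to at most 0.123 CPM in any library. Of 8 fibroblast or stellate markers 6 were under 1 CPM with THY1 at 0 counts, and their sum, nearly all COL1A2 (3.98-fold higher) and LUM (1.40-fold higher), was 46.7 to 52.7 CPM in LHX2 libraries, against 17.8 to 19.9 CPM in CTRL libraries. The sum moved with the groups, as did TAGLN and MYL9, and its part in their rises was not tested. Other genes of the same list lay the other way without overlap: COL3A1 had 2, 2 and 4 counts in LHX2 libraries, against 9, 7 and 8 counts in CTRL libraries, and PDGFRB had 1, 1 and 2 counts in LHX2 libraries, against 6, 10 and 6 counts in CTRL libraries, both too few to be tested. Endothelial markers summed to 2.78 to 3.22 CPM in LHX2 libraries, against 3.75 to 4.28 CPM in CTRL libraries, with 4 of 6 at 0 counts. Macrophage markers summed to 612 to 678 CPM in LHX2 libraries, against 471 to 500.2 CPM in CTRL libraries, nearly all of it LYZ, with CD163 and CSF1R at 0 counts. Of the 75 cytoskeletal genes 10 had 0 counts in all libraries, and the 28 not tested, mostly muscle or sensory forms, reached at most 17 counts in a library.

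Proteins that assemble and regulate actomyosin were set beside these genes in 8 lists with 193 genes in the count table, of which 173 were tested, 56 rose, 17 fell and 100 did not pass. That is 32.4% higher and 9.83% lower, beside 16.6% higher and 15.8% lower among all genes tested, and the median log2 fold change was 0.08, beside 0.01. Among small GTPases, ROCK kinases and regulators of myosin light chain phosphorylation 14 of 40 rose (35%) and 3 fell (7.5%). RHOU, an atypical small GTPase, rose to 129 ± 2.76 CPM in LHX2 libraries, against 73.2 ± 1.64 CPM in CTRL libraries (SD, n = 3 each), and RND3, which opposes RHOA and ROCK, rose 1.39-fold. MYLK, the kinase that activates the regulatory light chains, fell 1.36-fold (edgeR adjusted p = 6.5e-04). In the list of SRF and its cofactors MRTFB alone rose (1.35-fold) and 6 of 7 tested genes did not pass, 14.3% called.

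Lists of actin-nucleating proteins were counted in the same way. Of 10 tested formins, which build unbranched filaments, 5 rose (50%) and none fell in edgeR, where 16.6% of all genes tested were higher. Another 15.8% of all genes tested were lower. The formins that rose were led by FMNL2 at 1.79-fold, FHOD1 at 1.47-fold and FMN1 at 1.23-fold. Of the 9 subunits of the Arp2/3 complex, which builds branched networks, ARPC1A rose (1.07-fold) and ACTR3 and ARPC1B fell (log2 fold change -0.18 and -0.20), so that 33.3% were called, near the 32.5% of all genes tested. Its activators in the WASP and WAVE list rose in 2 of 16 cases, ABI2 at 1.25-fold and WASL at 1.12-fold, and WASF1 fell (-0.29), 18.8% called and thus below the share of all genes tested. The libraries of ARPC1B overlapped between the groups. The difference between formins and the Arp2/3 complex was not tested.

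Filament-binding and adhesion proteins rose more often than all genes tested, of which 16.6% were higher and 15.8% lower. Their shares that fell were near or below that of all genes tested. Of 22 tested crosslinkers, spectrins and ERM proteins 11 rose (50%) and 3 fell (13.6%), with SYNPO, an actin organiser of podocyte foot processes and dendritic spines, at 1.82-fold, LCP1, the plastin of blood cells, at 1.43-fold and LIMA1, which stabilises actin bundles, at 1.28-fold. Of 38 proteins that bind monomers, sever or cap filaments 12 rose (31.6%) and 3 fell (7.89%). The microvillar bundler VIL1 (villin) stood at 203 ± 9.97 CPM in LHX2 libraries, against 120 ± 2.81 CPM in CTRL libraries (SD, n = 3 each; edgeR adjusted p = 5.5e-09), TMOD1, which caps pointed ends, rose 1.75-fold and gelsolin (GSN), which severs filaments, 1.61-fold. Focal adhesion genes rose in 10 of 31 cases (32.3%) and fell in 5 (16.1%), and LPP, LIMS1 and CSRP2 led with rises of 1.43-fold, 1.42-fold and 1.36-fold. The lists were not tested as sets.

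**Figure D5:**
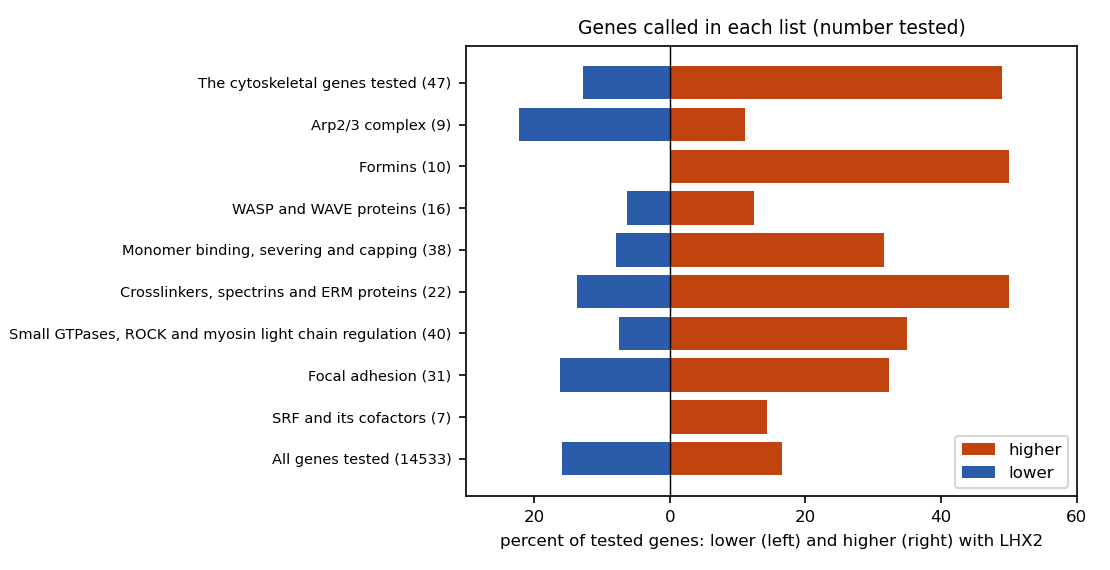
Share of tested genes that rose (right of 0, orange) or fell (left of 0, blue) with LHX2 at an adjusted p under 0.05, as a percentage of each list, with the number tested in brackets. The cytoskeletal genes stand at 48.9% higher and 12.8% lower, and all genes tested at 16.6% and 15.8%.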

How the data were processed

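RNA-seq of 3 LHX2 and 3 CTRL libraries was analysed from the table of read counts per gene that the authors deposited. Per the submitters' processing notes the build was GRCh38, also called hg38, and the tools named were featureCounts 2.0.0, TopHat2 2.1.1, SAMtools 1.9, Bowtie2 2.3.5.1, FastQC and bcl2fastq 2.20. Which annotation was counted, and with which strand setting, is not given in the sources used here, so reads of genes that overlap on opposite strands may be mixed. The column named CTRL1-1 was taken as CTRL replicate 1.

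Genes were kept by filterByExpr (at least 10 counts at the median library size in enough libraries, 15 in total) and fitted in edgeR 4.0.16 (R 4.3.3) with the quasi-likelihood test and TMM factors (0.985 to 1.02). P-values were adjusted by Benjamini-Hochberg over all 14533 genes tested. Each SE was the absolute log2 fold change divided by the square root of the test's F statistic. It therefore restates that test and is not a separate estimate of spread. CPM used the TMM-scaled library sizes. In counts simulated from these libraries, the test called 31 of 50 genes changed 1.2-fold, 47 of 50 changed 1.5-fold and 4 of 14064 unchanged genes, over 14264 genes. Far fewer genes were changed there than the 4716 called in the data, and every simulated gene had the dispersion of the fitted trend. The simulated shares therefore do not measure the false or missed calls of the main fit. Ratios used exact two-sided permutation tests (scipy 1.17.1). DESeq2 1.42.0, limma-voom (limma 3.58.1), other normalisations and filters, leaving out each library, and removal of a loess trend with length and GC content (span 0.3) were alternatives. Levels per kb and shared 50-base windows used the longest GENCODE release 29 transcript, and promoters came from RefSeq. The comparison of shared windows was added after the values were seen and replaces a protein comparison that was not run.

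The genes and lists were chosen with earlier results of these data known. Named were LHX2, every gene of the symbol rule (some are counted but not reported here by name), and, of each list, up to 3 called genes that averaged 5 CPM or more, taken by largest absolute log2 fold change. Marker genes named were the leading or absent ones and some that differed between the groups, and not every called marker is named. No 2 libraries agreed within sampling noise.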

Additional observations from a re-analysis of the deposited data

How the results depend on the processing

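Of the 29 called genes, 24 kept their call under each of the 15 alternatives in which they were tested, and none changed direction. The exceptions were ACTN1, TPM2, MYL6, ACTN4 and MYO9B. Removing the length and GC trend gave 21 higher and 12 lower, and 44.7% of all called genes were then higher. The cause of this shift was not tested. Leaving out each library gave 21 to 24 higher, 4 to 8 lower and 3549 to 4567 called among all genes tested. With the replicate number as a block, 23 were higher and 4 lower, and 3768 of all genes were called; TPM2 (-0.15) and ACTN1 (-0.12) were lost. Deviations of same-numbered libraries correlated at -0.056, -0.074 and -0.195, so the numbers were not taken as pairs. Directions turned in 12 instances, all in genes that had not passed. Scaling by library totals alone put MYH10 at 0.020. With the trend removed, MYO10 stood at -0.0030, MYO18A at -0.15 and MYO9A at -0.019. Over the fits without 1 library, log2 fold changes ran between -0.039 and 0.0088 for MYH10, between -0.12 and 0.035 for MYH3, between -0.26 and 0.051 for MYH4, between -0.31 and 0.16 for MYL5, between -0.048 and 0.24 for MYO10 and between -0.0058 and 0.17 for MYO9A. Genes with few counts per library (MYO10, MYO1F, MYL4, MYL5, TAGLN and MYO1G) carry wide errors, and the genes not tested had too few reads for a difference to be detectable at this depth.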

Other observations

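MYH4, named for fast skeletal muscle, had 166, 146 and 130 counts in LHX2 libraries, against 141, 211 and 168 counts in CTRL libraries. Of the other heavy-chain genes of its cluster on chromosome 17, MYH1 and MYH13 had 0 counts in all libraries and MYH2 and MYH8 at most 1, whereas MYH3 had 154, 200 and 225 counts in LHX2 libraries, against 228, 232 and 187 counts in CTRL libraries. Of the 50-base windows of the MYH4 transcript 13.6% also occurred in transcripts of other genes, foremost MYH1 with 7.64%. The skeletal muscle transcription factors MYOD1 and MYOG had 0 counts in all libraries.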
